A study of Homo sapiens with 2 samples.

Results

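The 8 iron genes FTL, FTH1, TF, TFRC, SLC11A2, SLC40A1, ACO1 and IREB2 are described here across live and processed human Stage 6 cells. They encode the ferritin subunits, transferrin and its receptor, 2 iron transporters and the 2 iron regulatory proteins. They were chosen by symbol, and all 8 were found among the 55797 genes listed for each sample. Both libraries came from the established embryonic stem cell line H1, differentiated in steps to Stage 6, a mixed culture that contains insulin-expressing cells. Live cells were fresh and unfixed, and their RNA was isolated with the RNeasy protocol. Processed cells went through the MARIS procedure, in which they were fixed in 4% paraformaldehyde, permeabilized, stained with antibodies and run through the sorter without selection, before RNA isolation with a modified RecoverAll kit. The comparison asks whether this processing changed the representation of transcripts. There was 1 library per condition and no replicate, so no difference below has a test between conditions. Fixation, permeabilization, staining, passage through the sorter and isolation kit changed together and cannot be told apart.

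Expression was given as FPKM, in which fragment numbers are divided by exon length and by library size, with a lower and an upper bound for each gene and library. Values are called separate where these bounds do not overlap. The bounds describe the precision of 1 library, and their level is not stated. The number of genes at 1 FPKM or more was 16004 in the live and 15957 in the processed library. In the steps of low FPKM values, 1 fragment was worth 1.07 times as much in the processed library, which was thus slightly shallower. The endocrine markers INS, GCG, SST, CHGA, NEUROD1, PDX1, NKX6-1, ISL1 and PAX6 all reached an FPKM of 1 in both libraries, with INS at 98.3 FPKM in the live and 121 FPKM in the processed library. All 10 liver markers listed were also expressed, with summed levels of 2715 FPKM in the live and 2984 FPKM in the processed library. The RNA is therefore that of a mixed culture, in which fewer cells of a type and less RNA per cell cannot be told apart.

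Iron travels in plasma bound to transferrin, enters cells with the transferrin receptor, and leaves the endosome through SLC11A2, also known as DMT1. Iron that is not used is stored in ferritin, a shell of heavy (FTH1) and light (FTL) subunits, or exported by ferroportin, the product of SLC40A1. ACO1 and IREB2 encode the iron regulatory proteins, which bind a hairpin called the iron-responsive element when iron is scarce. Bound in the 5′ untranslated region (UTR), as in ferritin and ferroportin mRNA, they block translation. Bound in the 3′ UTR, as in TFRC mRNA, they protect the mRNA from decay.

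The elements are shown because they set apart the mRNAs whose abundance and those whose translation the regulators act on. Each run of 29 bases is read from the GRCh37 transcripts of GENCODE release 44, 5′ to 3′ on the mRNA strand. Capitals mark the bulged C and the loop. The motif was C, then any 5 bases, then CAGTG and any 1 base. A match also required the 5 bases before the loop to pair with the 5 bases after it, G-T pairs allowed, with at most 1 mismatch. Only the mRNA strand was searched.
FTL, 5′ UTR, chr19:49468592-49468620, plus strand: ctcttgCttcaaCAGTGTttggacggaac
FTH1, 5′ UTR, chr11:61735046-61735074, minus strand: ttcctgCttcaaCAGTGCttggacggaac
SLC40A1, 5′ UTR, chr2:190445387-190445415, minus strand: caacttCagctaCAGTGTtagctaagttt
SLC11A2, 3′ UTR, chr12:51382052-51382080, minus strand: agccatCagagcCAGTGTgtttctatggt
TFRC, 3′ UTR, site 1, chr3:195777850-195777878, minus strand: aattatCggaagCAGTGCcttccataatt
TFRC, 3′ UTR, site 2, chr3:195777446-195777474, minus strand: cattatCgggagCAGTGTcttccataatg
TFRC, 3′ UTR, site 3, chr3:195777381-195777409, minus strand: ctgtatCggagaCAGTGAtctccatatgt
TFRC, 3′ UTR, site 4, chr3:195777334-195777362, minus strand: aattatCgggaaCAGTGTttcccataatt

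The FTL and FTH1 elements were alike at 26 of 29 positions, whereas FTL and TFRC site 1 shared 10. TFRC sites 1 and 2 shared 25 of 29 positions. All elements shown paired without mismatch except that of SLC11A2, which had 1. The motif with at most 1 mismatch was found in the 5′ UTR of 1.56% and in the 3′ UTR of 5.11% of protein-coding genes, and with no mismatch in 0.20% and 0.737%. ACO1 and IREB2 each held a match with 1 mismatch in the 3′ UTR, that of ACO1 beyond the end of the gene in the authors' annotation. TF held a match without mismatch in a 3′ UTR annotated at 18024 nt, at position 16204 of the mRNA and likewise beyond the end of the gene in that annotation. The SLC11A2 element was carried by 4 of its 8 protein-coding transcripts with an annotated 3′ UTR, and the SLC40A1 element by 1 of 5 with an annotated 5′ UTR. Gene-level FPKM does not separate these forms.

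**Figure D1:**
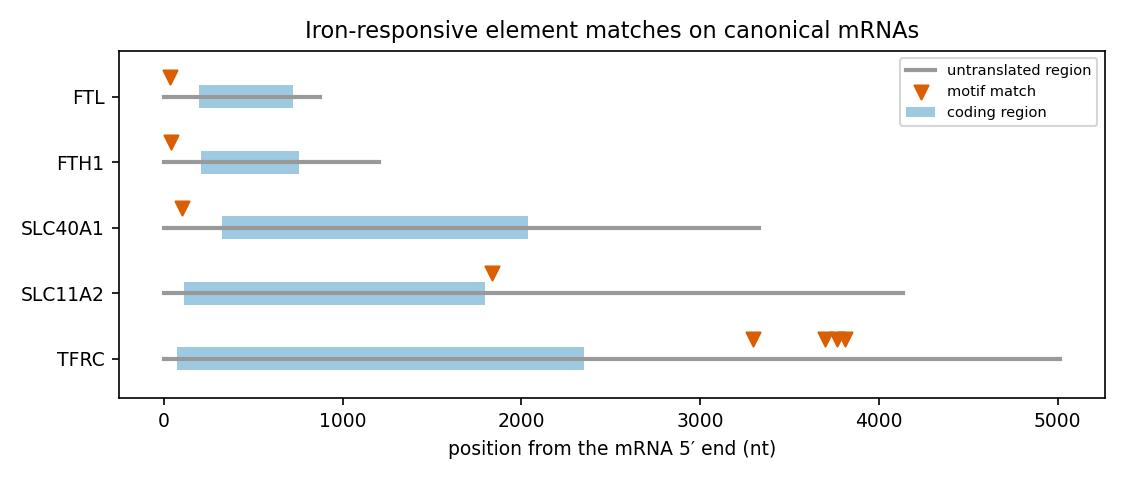
Canonical mRNAs of 5 iron genes drawn to scale, with position from the 5′ end in nt on the x axis, thin lines for untranslated regions, boxes for coding regions and triangles for matches to the iron-responsive element motif. FTL, FTH1 and SLC40A1 have 1 match each before the coding region, SLC11A2 has 1 and TFRC has 4 after it.

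Ferritin mRNAs were by far the most abundant of the 8 genes and were nearly the same in both libraries. FTL (ENSG00000087086.8, chr19:49468566-49470135, GRCh37), the light subunit, stood at 958 FPKM in live cells (bounds 951 to 966) and 953 FPKM in processed cells (946 to 961). FTH1 (ENSG00000167996.11, chr11:61727190-61735132), the heavy subunit that oxidizes iron for storage, stood at 914 FPKM (904 to 924) in live cells and 909 FPKM (898 to 919) in processed cells. The bounds overlapped between libraries for both genes, and the change from live to processed was -0.530% for FTL and -0.574% for FTH1. On the scale log2((processed FPKM + 1) / (live FPKM + 1)), used for all log2 ratios below, both were at -0.01, with ranges given by the bounds from -0.03 to 0.02 for FTL and from -0.04 to 0.02 for FTH1. The sign depended on the scaling. Dividing the processed library by its median ratio to the live library, 0.932, moved both to 0.09, with separate bounds. Scaling to equal sums of FPKM moved both to 0.02, with separate bounds for FTL and overlapping bounds for FTH1.

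Ordered by FPKM in live cells, FTL was at place 60 and FTH1 at place 64 of all 55797 genes. In processed cells they were at places 57 and 61. The ratio of heavy to light ferritin mRNA, in which library scaling cancels, was 0.954 in live cells (0.936 to 0.972 from the bounds) and 0.953 in processed cells (0.935 to 0.972). The genes closest to FTL in level over both libraries were RPS20, a ribosomal protein gene, at 955 and 930 FPKM, and KRT18, an epithelial keratin gene, at 998 and 959 FPKM. Those closest to FTH1 were the ribosomal protein genes RPL18, at 929 and 922 FPKM, and RPL5, at 928 and 890 FPKM. Closeness was the Euclidean distance of log2(FPKM + 1) over the 2 libraries and says nothing of shared control.

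**Figure D2:**
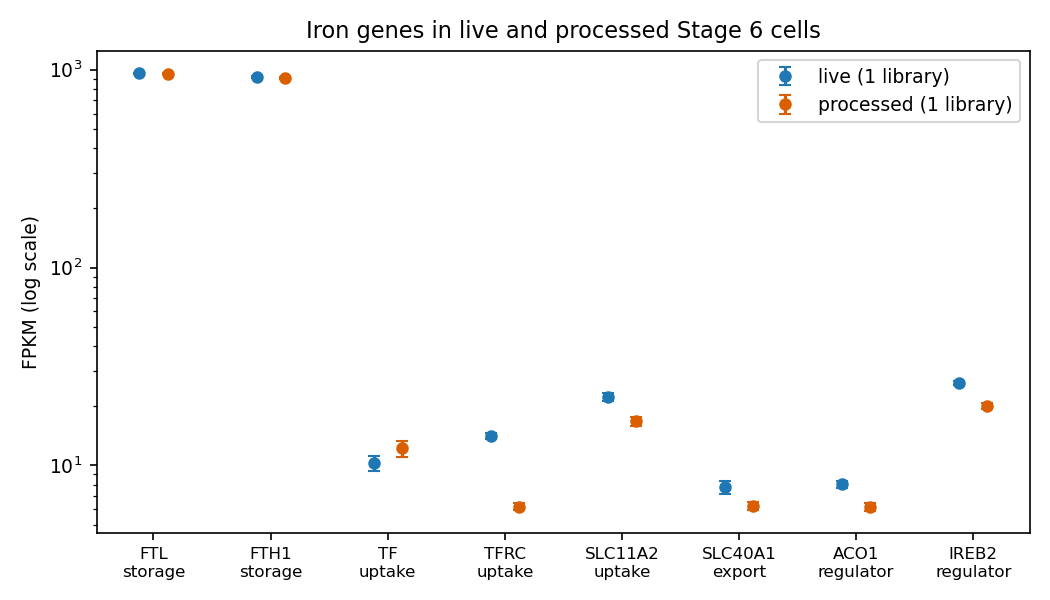
FPKM (log axis) of the 8 iron genes in live and processed cells, 1 library each, with bars for the authors' bounds and the role of each gene under its name. FTL and FTH1 lie between 909 and 958 FPKM, the other 6 genes between 6.17 and 26.1 FPKM, and TFRC shows the widest gap between libraries.

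The FTH1 value carries an uncertainty that its bounds do not show. FTH1 has many processed pseudogenes, intronless copies of its mRNA, and fragments can be split among near-identical copies. Of 25 rows named as FTH1 pseudogenes, 10 reached an FPKM of 1 in the live or the processed library. Their levels were high, with FTH1P2 at 199 FPKM in the live and 234 FPKM in the processed library, FTH1P10 at 140 and 163 FPKM, and FTH1P8 at 116 and 132 FPKM. These 3 rows were higher in processed cells with separate bounds. FTH1P20, at 115 and 106 FPKM, FTH1P7, at 102 and 74.2 FPKM, and FTH1P11, at 77.2 and 68.7 FPKM, were lower in processed cells, also with separate bounds. The pseudogenes thus moved in both directions while FTH1 itself stayed level. FTH1P5, at 2.29 and 3.97 FPKM, was also higher in processed cells, whereas the bounds of FTH1P23, FTH1P16 and FTH1P15 overlapped and their rows carried the status LOWDATA, given by the authors' software to values it could not estimate well.

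Pseudogene rows summed to 790 FPKM in the live and 808 FPKM in the processed library, or 86.4% and 88.9% of the FTH1 value. The 8 rows that reached an FPKM of 10 in either library matched FTH1 mRNA at 96.0% to 97.6% of aligned bases. The 14 rows below 1 FPKM that could be aligned had a median identity of 77.4%, and 2 of them reached 95%. How many of these fragments came from FTH1 was not tested, since fragment alignments were not analysed here. With pseudogene rows added to the parent, the log2 ratio of FTH1 was 0.01 and that of FTL -0.0048. The heavy to light ratio became 1.73 in live and 1.75 in processed cells. These are plain sums of FPKM, not of fragments. FPKM is per length, and FTH1P2 (412 nt) and FTH1P10 (930 nt) are shorter than FTH1 mRNA (1203 nt), so pseudogene fragments weigh more in the sum. The level of FTH1 relative to FTL, with FTL the higher, thus turns on whether rows are added, and the similarity of the libraries does not. FTL was touched less, as its 17 pseudogene rows summed to 27.5 FPKM in the live and 29.3 FPKM in the processed library. Of these FTLP3, with 97.7% identity, held 26.4 and 25.2 FPKM. FTLP14, at 0.920 and 4.06 FPKM with status LOWDATA, had overlapping bounds.

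**Figure D3:**
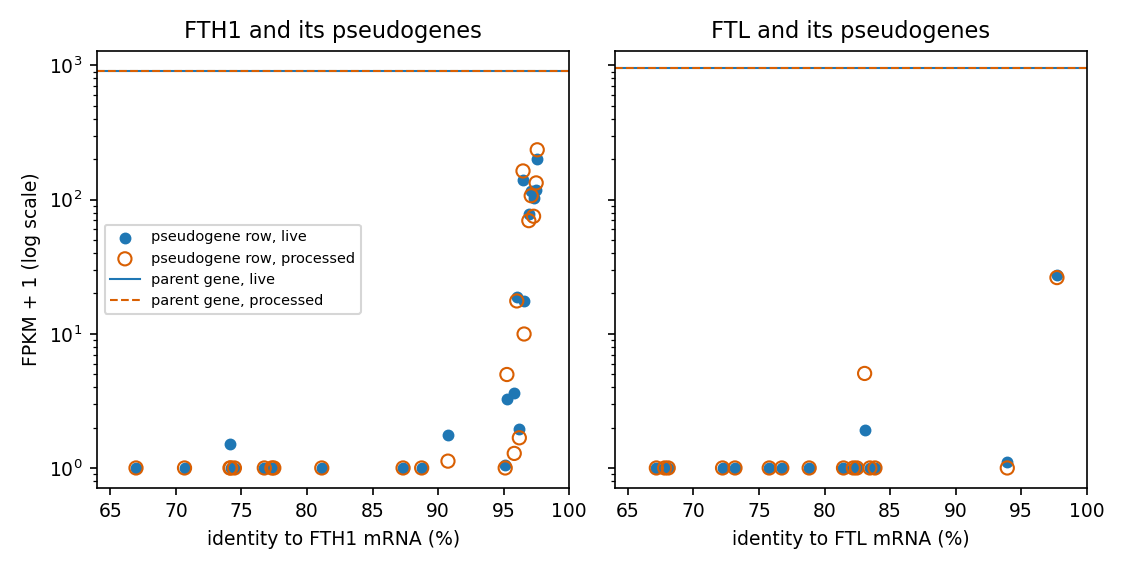
FPKM + 1 (log axis) of ferritin pseudogene rows in live (filled) and processed (open) cells against their identity to FTH1 (left) or FTL (right) mRNA in percent, with horizontal lines for the parent genes. FTH1 pseudogenes above 10 FPKM all have at least 96.0% identity, and the single FTL pseudogene at this level has 97.7%.

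TFRC was the gene of the 8 that differed most. TFRC (ENSG00000072274.8, chr3:195754054-195809060), the receptor that brings iron-loaded transferrin into cells, stood at 14.1 FPKM in live cells (bounds 13.6 to 14.6) and 6.19 FPKM in processed cells (5.96 to 6.43). The change from live to processed was -56.1%, with a log2 ratio of -1.07 and a range from -1.17 to -0.97 given by the bounds. It was the only one of the 8 genes past 2-fold, and none was past 2-fold in the other direction. Of 17326 genes at 1 FPKM or more in either library, called tested below, 6.19% were more than 2-fold lower and 6.57% more than 2-fold higher in processed cells. Over all tested genes, 5.09% had a lower log2 ratio than TFRC. In its level class, 4942 genes whose FPKM averaged between 10 and 30, the share was 1.58% (78 genes). TFRC, with a mean of 10.2 FPKM, lay at the lower edge of that class. In the next class down, 3 to 10 FPKM, the 5th percentile was -0.98 and 4.81% of genes were more than 2-fold lower. After division by the median ratio, TFRC stood at -0.98 and no longer passed 2-fold, against 5.62% of tested genes lower and 7.5% higher by more than 2-fold. It passed with a pseudocount of 0.1 (-1.18), without a pseudocount (-1.19) and with equal sums of FPKM (-1.04).

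Relative to FTH1 and to SLC11A2, TFRC was lower in processed than in live cells. The ratio of TFRC to FTH1, free of library scaling, was 0.0154 in live cells (0.0147 to 0.0162) and 0.00681 in processed cells (0.00648 to 0.00716), 2.27 times lower. As FTH1 changed by -0.574%, this ratio restates the change of TFRC and is not a further result. The ratio of TFRC to SLC11A2, whose element also lies in the 3′ UTR, was 0.637 in live cells and 0.371 in processed cells. Transcript length moved with the log2 ratio across genes. The median was -0.02 for protein-coding genes with canonical transcripts of 1000 to 2000 nt and -0.20 for those of 5000 to 8000 nt. In the latter class, which held TFRC (5012 nt) at its lower edge, 3.56% of 2447 genes were more than 2-fold lower. In the next class down, 3000 to 5000 nt, the median was -0.14, and 2.89% of 3838 genes were more than 2-fold lower. The genes ACO1 (7443 nt) and IREB2 (6324 nt), of the 5000 to 8000 nt class, were at -0.33 and -0.38. Markers of pluripotent cells, which carry much transferrin receptor, summed to 158 FPKM in the live and 124 FPKM in the processed library. LIN28A was highest, at 119 and 88.7 FPKM. Of the 5 markers, 3 were lower and 1 higher with separate bounds, where 43.7% of all tested genes were lower and 28.1% higher. NANOG, the one that was higher, went from 1.27 to 7.34 FPKM, and POU5F1 stood at 7.92 and 8.53 FPKM with overlapping bounds. The part of length and of these cells in the TFRC result was not tested.

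**Figure D4:**
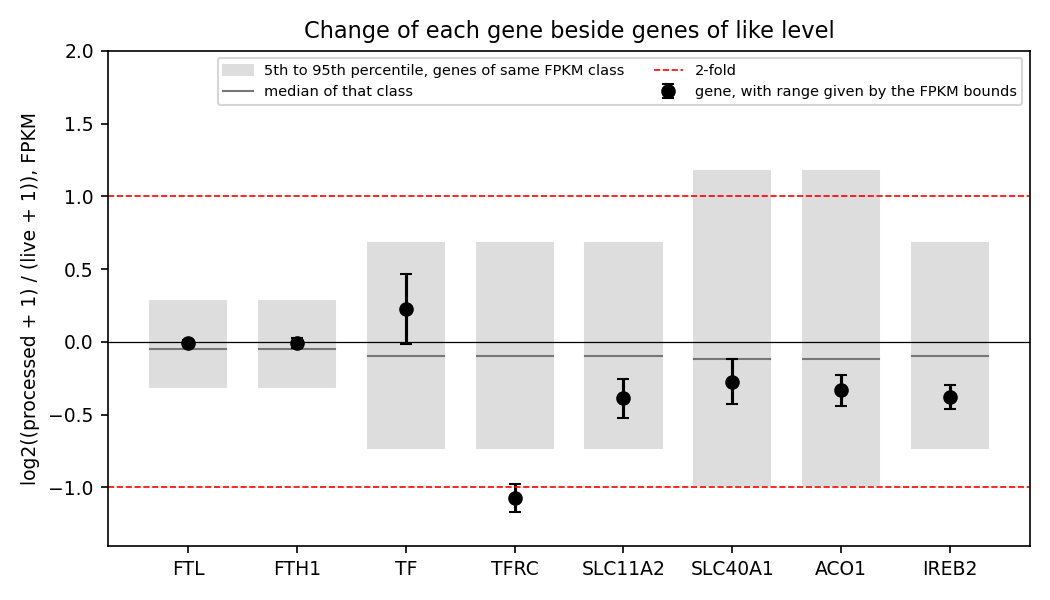
Log2 ratio of processed to live FPKM (pseudocount 1) for the 8 iron genes, with bars for the range that the bounds allow, over grey boxes for the 5th to 95th percentile and a line for the median of genes in the same class of mean FPKM. TFRC, at -1.07, lies below the grey box and the 2-fold line, the other 7 genes lie within their boxes, and TF at 0.23 is the highest.

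TF, the plasma iron carrier that hepatocytes secrete, was the only one of the 8 genes with a higher deposited value in processed cells, joined by FTL and FTH1 under either scaling. TF (ENSG00000091513.10, chr3:133464800-133497850) stood at 10.3 FPKM in live cells (9.36 to 11.2) and 12.2 FPKM in processed cells (11.0 to 13.3). The bounds overlapped, and the log2 ratio was 0.23 with a range from -0.02 to 0.47. Its bounds were the widest of the 8 genes, at 8.82% and 9.38% of the value on either side. TF stood at 0.32 after division by the median ratio and at 0.26 with equal sums of FPKM, both with separate bounds. Among the 10 liver markers, 5 were higher and 4 lower in processed cells with separate bounds, with a median log2 ratio of 0.10. Of all tested genes, 28.1% were higher and 43.7% lower in this way. SERPINA1, a plasma protease inhibitor, was the highest of them at 1496 and 1579 FPKM, and AFP, the fetal plasma albumin, stood at 460 and 550 FPKM. HNF4A changed most of the 10 and was lower, at 22.9 and 14.1 FPKM (-0.67). Stromal markers, another cell class of such cultures, summed to 90.9 FPKM in the live and 87.8 FPKM in the processed library, with 3 of 7 lower and 2 higher with separate bounds. COL1A1 had the highest mean level and was lower, at 31.9 and 22.7 FPKM. LUM, at 12.7 and 8.33 FPKM, and PDGFRB, at 4.26 and 1.17 FPKM, were lower as well. COL1A2, at 21.5 and 26.6 FPKM, and DCN, at 4.18 and 12.4 FPKM, were higher. The share of TF RNA that came from liver-like cells was not tested. Since TF and TFRC lay on opposite sides, the ratio of TF to TFRC was 0.727 in live cells and 1.97 in processed cells.

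SLC11A2, the transporter that moves ferrous iron out of the endosome, was lower in processed cells. SLC11A2 (ENSG00000110911.10, chr12:51373184-51422349) stood at 22.2 FPKM in live cells (21.1 to 23.2) and 16.7 FPKM in processed cells (15.9 to 17.5), a log2 ratio of -0.39. SLC40A1 (ENSG00000138449.6, chr2:190425305-190448484), which encodes the exporter ferroportin, stood at 7.73 FPKM (7.14 to 8.32) and 6.22 FPKM (5.93 to 6.50), a log2 ratio of -0.27. Both pairs of bounds were separate, and both differences were well within 2-fold. The ratio of exporter to importer mRNA, SLC40A1 to SLC11A2, was 0.349 in live cells (0.307 to 0.395) and 0.373 in processed cells (0.339 to 0.409), with overlapping ranges. Macrophages, which recycle iron and are rich in ferroportin, left little trace. Of their 10 markers 2 reached an FPKM of 1, and LYZ was the highest at 3.22 and 4.58 FPKM. CD163, the hemoglobin scavenger receptor, was at 1.60 FPKM in live cells and listed at 0 in processed cells, and MARCO was listed at 0 in both.

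The mRNAs of both iron regulatory proteins were lower in processed cells. IREB2 (ENSG00000136381.8, chr15:78729773-78793798), which encodes the regulator that is degraded when iron is plentiful, stood at 26.1 FPKM in live cells (25.5 to 26.8) and 19.9 FPKM in processed cells (19.2 to 20.6). ACO1 (ENSG00000122729.12, chr9:32384618-32450834), which encodes an aconitase that turns into a regulator when it loses its iron-sulfur cluster, stood at 8.03 FPKM (7.72 to 8.34) and 6.17 FPKM (5.89 to 6.46). The log2 ratios were -0.38 for IREB2 and -0.33 for ACO1, both with separate bounds. The ratio of IREB2 to ACO1 was 3.25 in live cells (3.06 to 3.47) and 3.22 in processed cells (2.97 to 3.49).

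The order of levels was FTL, FTH1, IREB2, SLC11A2, TFRC, TF, ACO1 and SLC40A1 in live cells. The bounds of ACO1 and SLC40A1 overlapped there, and all other neighbours in the order were separate. In processed cells the first 4 places were the same, TF came next, and SLC40A1, TFRC and ACO1 followed at 6.22, 6.19 and 6.17 FPKM with overlapping bounds. TFRC thus moved from above TF, with separate bounds, to below it, also with separate bounds. Over the 8 genes, 5 were lower in processed cells with separate bounds (TFRC, SLC11A2, SLC40A1, ACO1 and IREB2), none was higher with separate bounds, and 3 overlapped. Of all 17326 genes tested, 43.7% were lower and 28.1% higher with separate bounds. After division by the median ratio, the same 5 genes were lower and FTL, FTH1 and TF were higher with separate bounds, against 35.7% and 34.8% of all genes. The median log2 ratio of the 8 genes was -0.30, and that of all genes tested was -0.09. None of the 7 other genes that overlap them in the genome reached an FPKM of 1 in either library.

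Other genes of iron metabolism were described from 6 lists with 62 genes, of which 51 were tested. With 1 added to each FPKM, none of the 51 was past 2-fold, and under either scaling 1 was higher. This count rests on the pseudocount, since without it 3 genes of low level (FLVCR2, STEAP1 and CYBRD1) were more than 2-fold higher and 1 (PCBP3) was more than 2-fold lower. Of the 51 genes, 21 were lower and 15 higher with separate bounds, and their median log2 ratio was -0.07. Of all tested genes, 43.7% were lower and 28.1% higher with separate bounds, and 6.19% were more than 2-fold lower and 6.57% more than 2-fold higher. The counts here and in each list below stand beside these shares and are not results about the lists. In the list of iron entry (6 of 10 genes tested), 3 genes were higher and 1 lower with separate bounds. The highest level was that of SLC39A14, a zinc and iron importer, at 25.5 FPKM in the live and 22.8 FPKM in the processed library. The 3 that were higher had low levels. STEAP1, of the STEAP family, stood at 1.25 and 2.84 FPKM (log2 ratio 0.77), the ferrireductase CYBRD1 at 0.739 and 1.48 FPKM (0.51) and STEAP3, the endosomal ferrireductase, at 1.52 and 2.12 FPKM (0.31). TFR2, the second transferrin receptor, stayed below 1 FPKM in both libraries, at 0.774 and 0.618 FPKM.

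In the list of iron export and systemic control (4 of 8 tested), 3 genes were lower and 1 higher. NEO1, a co-receptor in hepcidin control, stood at 36.6 and 28.5 FPKM (-0.35), and HEPH, a ferroxidase that works with ferroportin, at 19.8 and 14.7 FPKM (-0.41). CP, the plasma ferroxidase ceruloplasmin, was the one that was higher, at 2.17 and 3.86 FPKM (0.61). HAMP, which encodes the hormone hepcidin, stood at 0.0911 and 0.293 FPKM with overlapping bounds. In the list of ferritin handling (5 of 7 tested), 4 genes were lower and none higher. PCBP2, an RNA-binding protein that also delivers iron to ferritin, was the highest at 774 and 712 FPKM (-0.12). NCOA4, the receptor that sends ferritin to the lysosome, stood at 32.8 and 25.1 FPKM (-0.37). PCBP3 stood at 1.07 and 0.535 FPKM (-0.43). PCBP4, at 68.6 and 54.2 FPKM, had status FAIL in the live library and bounds that overlapped.

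In the list of regulatory protein control and other mRNAs with the element (7 of 8 tested), 3 genes were lower and 1 higher. FBXL5, which marks IREB2 protein for degradation, stood at 20.9 and 23.0 FPKM with overlapping bounds. EPAS1, a hypoxia-inducible factor subunit, was higher, at 6.88 and 9.13 FPKM (0.36). CDC42BPA, a kinase, stood at 4.94 and 3.36 FPKM (-0.45) and CDC14A, a phosphatase, at 4.33 and 3.67 FPKM (-0.19). PFN2, an actin-binding profilin, had the highest level at 120 and 108 FPKM (-0.16). ALAS2, the red cell form of the first enzyme of heme synthesis, was at 0.325 FPKM in live cells and listed at 0 in processed cells. Of the 10 erythroid markers 2 reached an FPKM of 1, with EPOR highest at 16.2 and 14.4 FPKM, and HBA1 and HBA2 were listed at 0 in both libraries.

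Of 13 genes of mitochondrial iron and Fe-S assembly, all tested, 4 were lower and 4 higher with separate bounds, where 43.7% of all tested genes were lower and 28.1% higher. CISD1, an outer membrane Fe-S protein, stood at 15.0 and 26.8 FPKM (0.80) and FDXR, which passes electrons to ferredoxin, at 6.60 and 3.68 FPKM (-0.70). GLRX5, a glutaredoxin of Fe-S assembly, had the highest mean level, at 42.7 and 50.9 FPKM. Of 16 genes of heme metabolism, all tested, 6 were lower and 6 higher. UROD had the highest mean level, at 22.5 and 20.8 FPKM with overlapping bounds. PPOX, the next to last enzyme of heme synthesis, stood at 15.2 and 24.3 FPKM (0.64), and CPOX, the enzyme just before it, at 15.0 and 8.07 FPKM (-0.82). FLVCR2, a membrane transporter, stood at 0.867 and 2.68 FPKM (0.98).

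**Figure D5:**
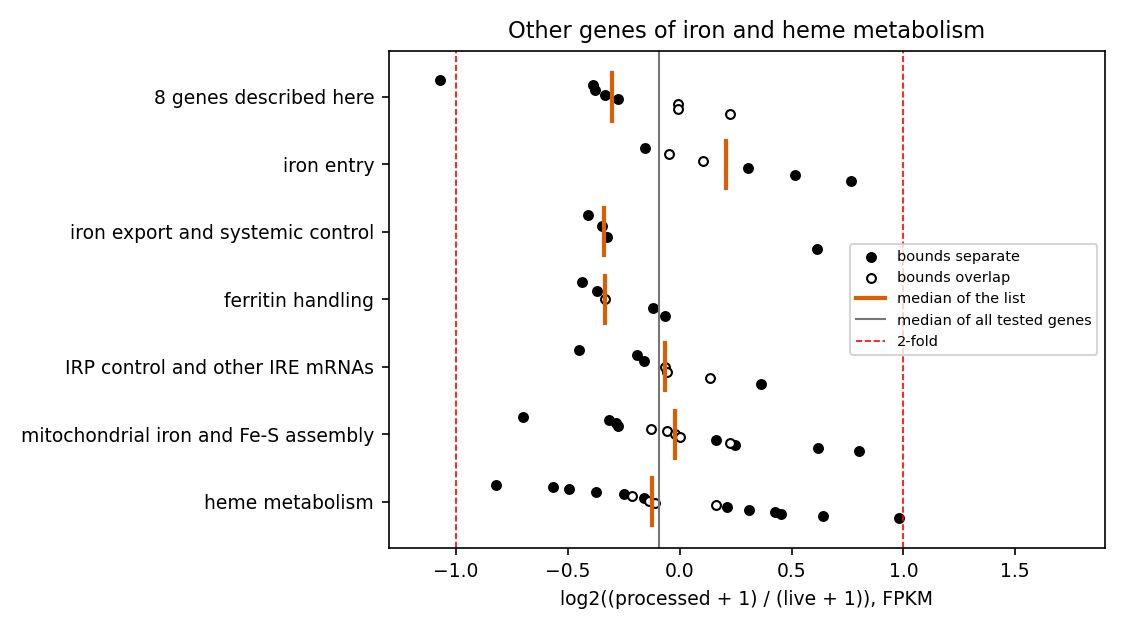
Log2 ratio of processed to live FPKM (x axis, pseudocount 1) for the 8 genes and for 6 lists of other iron and heme genes, 1 point per tested gene. Filled points have separate bounds, orange bars are list medians, and on this scale TFRC is the only point beyond a dashed 2-fold line.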

How the data were processed

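RNA-seq of 1 live and 1 processed sample was used. RNA was poly-A purified. The authors used STAR 2.2.0c with GENCODE 14 to place the paired reads on GRCh37/hg19, and deposited FPKM values with bounds, made with Cufflinks 2.0.2 according to the submitters' processing notes. The labels and the methods differ on whether the libraries shared a lane. Read counts were not analysed here, and FPKM was not treated as counts.

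Files were joined by Ensembl identifier, and start positions, counted from 0 in the files, were raised by 1. Log2 ratios of the deposited FPKM used a pseudocount of 1. Genes at 1 FPKM or more in either sample were called tested. All 8 genes had status OK in both samples. No test between conditions was made. Gene types, UTRs and canonical lengths came from GENCODE 44 on GRCh37, which held 94.5% of identifiers, and pseudogene identity from blastn 2.17.0. Analyses used Python 3.11.15, numpy 2.4.6 and pandas 2.3.3.

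The genes and lists were chosen with earlier results of these data known. From each list the gene of highest level and up to 3 with the largest absolute log2 ratio were named, with pseudogenes at an FPKM of at least 1 and the 2 genes nearest in level to FTL and FTH1. Further genes were named for their role or change after values were seen: TFR2, HAMP, FBXL5, ALAS2, NANOG, POU5F1, AFP, HNF4A, CD163, COL1A2, DCN, LUM, PDGFRB, the endocrine markers and the markers listed at 0. Alternatives were other pseudocounts, 2 scalings, other sets of background genes, added pseudogene rows and full pairing of the motif. Some genes that these rules would name are not reported here.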

Additional observations from a re-analysis of the deposited data

How the results depend on the processing

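With 1 library per condition, leaving out a replicate was not possible. No paired analysis was possible because each condition has 1 sample and no test was made. Division of processed FPKM by the median ratio left 0 of the 8 genes more than 2-fold lower, in place of 1 (TFRC), and gave 3 with higher, separate bounds in place of 0. Scaling to equal sums gave 2 such genes (FTL and TF). Of the 51 other iron genes, in which 0 were past 2-fold, the number more than 2-fold higher became 2 with a pseudocount of 0.1, 3 without a pseudocount and 1 under either scaling, and 1 was more than 2-fold lower without a pseudocount. Adding pseudogene rows, as plain sums of FPKM over rows of unlike length, moved the heavy to light ferritin ratio to 1.73 in live and 1.75 in processed cells. Requiring full pairing of the motif left 2 of 5 genes with a match in the 3′ UTR (TF and TFRC). The number of the 8 genes with lower, separate bounds was 5 under both scalings. The share of all tested genes more than 2-fold lower, 6.19%, was 3.50% without the filter, 2.02% at an FPKM of at least 10 and 3.53% in protein-coding genes. The shares more than 2-fold higher were 3.72%, 2.99% and 3.15%, in place of 6.57%. Bounds cover each library alone, and what 2 libraries of the same condition would differ by is unknown.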
